A study of Mus musculus with 19 samples.

Results

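The minor subfamilies of the intracisternal A particle (IAP) described here were chosen by name: every deposited subfamily whose name starts with IAP, other than IAPEz-int, IAPLTR1_Mm, IAPLTR1a_Mm, IAPA_MM and all names starting with IAPLTR2 or IAPEY. The rule found 7 of the 25 IAP subfamilies and of the 259 retrotransposon subfamilies in all: IAP1-MM_I, IAP1-MM_LTR, IAP-d, IAPLTR3-int, IAPLTR3, IAPLTR4_I and IAPLTR4. A further step would have kept the 10 with the highest mean RPM (reads scaled to the size of the library), but it removed 0. All 7 carry the class LTR and the family ERVK in the files.

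IAPs are mouse endogenous retroviruses with an internal region that codes for gag and pol proteins, between a pair of long terminal repeats (LTRs) that hold the promoter and the polyadenylation signal. Repeat libraries list the internal region and the LTR under separate names, so a transcript of a full-length provirus gives reads to both. In male germ cells IAPs are kept silent by DNA methylation set down before birth and by PIWI-interacting RNAs (piRNAs). DNMT3L is a cofactor of the de novo DNA methyltransferases that has no catalytic activity of its own. PLD6 (MitoPLD) is a nuclease of the mitochondrial outer membrane that is needed to make piRNAs.

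Polyadenylated RNA was sequenced from spermatogonia sorted by FACS for the surface protein EpCAM in 19 libraries from mouse testes at postnatal day 7. The Dnmt3l line had 2 wild-type (Dnmt3l+/+), 3 heterozygous (Dnmt3l+/-) and 3 knockout (KO) libraries, and the Pld6 line had 3 wild-type (Pld6+/+), 3 heterozygous (Pld6+/-) and 5 KO libraries, all labelled as biological replicates. The KO animals were homozygous, both lines had been backcrossed to C57BL/6J, and every group went through the same sort. The labels give 2 wild-type and 3 heterozygous Dnmt3l libraries where the study's methods give these numbers the other way round, and the labels were followed here. The files hold retrotransposons and no genes, so neither the spermatogonial markers nor the Pld6 and Dnmt3l transcripts were analysed here.

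The question was how far each mutation raised these IAP names, and whether both mutations did so to the same extent. Values are the deposited RPM, and sequencing depth is unknown. The RPM of all subfamilies summed to between 2103.5 and 14603.2 per library. Pld6 heterozygous library 1 listed 159 subfamilies at 0, against 60 to 90 in the other 18 libraries. RPM is not divided by length, so levels are compared below between libraries, and between names only as shares or ratios of RPM.

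Transcripts matching IAP1-MM_I and IAP1-MM_LTR, IAP-d and IAPLTR3-int were higher in both mutants, whereas IAPLTR3, IAPLTR4 and IAPLTR4_I stayed below 1 RPM in every library. In the fit of log2(RPM + 1) with limma, 4 subfamilies were tested and all 4 were higher in the Pld6 KO, against 30.7% of all 114 subfamilies tested. The same 4 were higher in the Dnmt3l KO, against a background of 38.6%. IAPLTR3-int entered the fit through KO libraries alone (the 8 libraries at 1 RPM or more were the 8 KO libraries), so these counts are descriptions. With all 259 subfamilies fitted and no filter on low values, the count was 4 of 7 in each mutant, against backgrounds of 14.3% for Pld6 and 15.1% for Dnmt3l. In a sorted bulk sample, more RNA per cell and more cells of an expressing kind cannot be told apart.

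**Figure D1:**
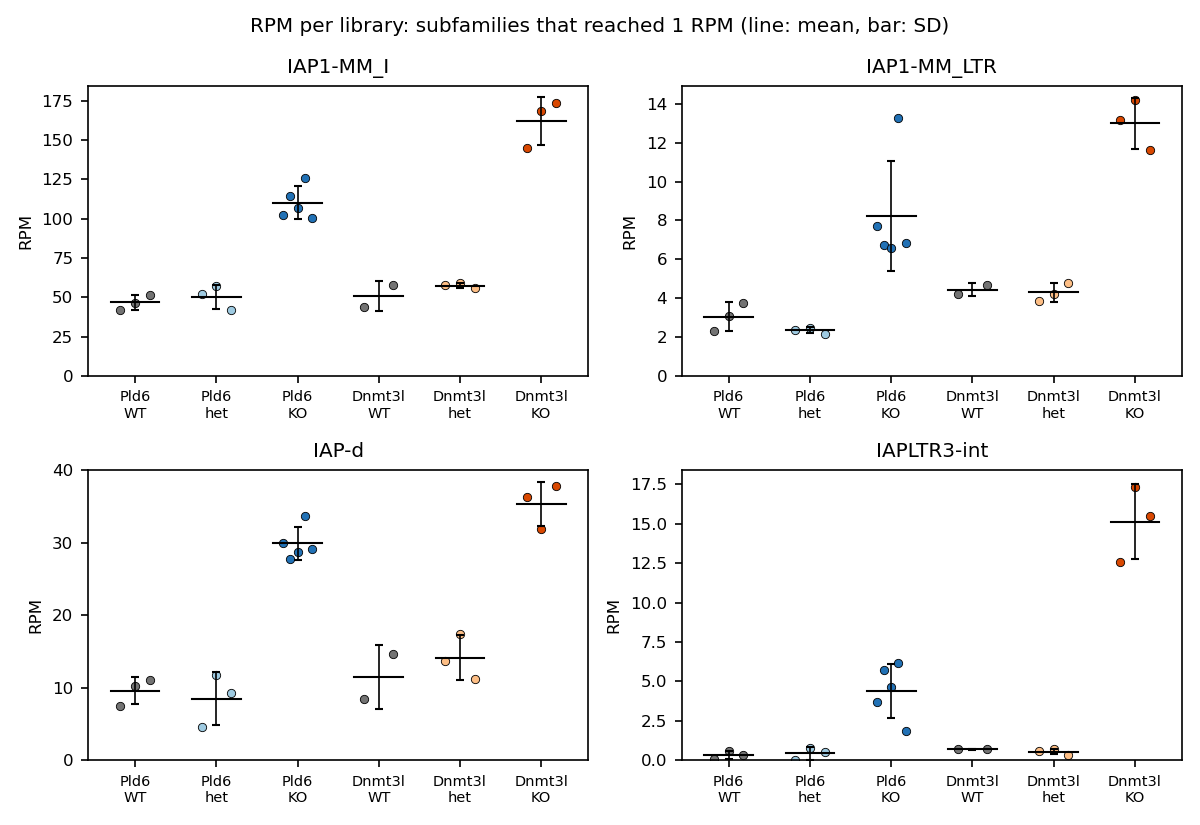
RPM of the 4 subfamilies that reached 1 RPM, on a linear axis in each panel, in the 6 groups. Points are libraries, lines are means and bars are SD (n = 2, 3 or 5 as given in the text). In each panel all KO points lie above all wild-type and heterozygous points of the same line.

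IAP1-MM_I is by its name the internal region of the IAP1-MM element, and it was the most abundant of the 7. In RPM, it stood at 42.17, 46.62 and 51.40 RPM in the Pld6 wild type and at 102.60, 114.70, 106.70, 125.85 and 100.58 RPM in the Pld6 KO. In the Dnmt3l line it was at 43.85 and 57.57 RPM in the wild type and at 144.63, 168.50 and 173.48 RPM in the KO. The groups of each line did not overlap, and the gap between the groups was wider than the range within either group. The means were 2.36 times higher in the Pld6 KO (110 ± 10.3 against 46.7 ± 4.62 RPM, SD, n = 5 and 3) and 3.20 times higher in the Dnmt3l KO (162 ± 15.4 against 50.7 ± 9.70 RPM, SD, n = 3 and 2). In limma the log2 fold change was 1.22 (SE 0.14, Benjamini-Hochberg adjusted p = 5.0e-07) for Pld6 and 1.67 (SE 0.18, adjusted p = 1.4e-07) for Dnmt3l.

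IAP1-MM_LTR, the LTR of the same element, had a much lower RPM and was also higher in both mutants. Its values were 2.31, 3.09 and 3.77 RPM in the Pld6 wild type and 7.70, 6.75, 6.59, 13.25 and 6.84 RPM in the Pld6 KO. It was at 4.20 and 4.67 RPM in the Dnmt3l wild type and at 13.19, 14.22 and 11.61 RPM in the Dnmt3l KO. No KO value overlapped a wild-type value, and Pld6 KO library 4 stood apart from the other 4, at the level of the Dnmt3l KO. The log2 fold change was 1.16 (SE 0.20, limma adjusted p = 8.2e-05) in the Pld6 KO, and 0.99 without library 4. In the Dnmt3l KO it was 1.36 (SE 0.25, limma adjusted p = 0.00020).

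The balance of internal region and LTR of IAP1-MM differed between the Pld6 groups by less than their spread. The ratio, as log2 of (internal RPM + 1) over (LTR RPM + 1), was 3.57 ± 0.13 in the wild type and 3.63 in the KO, 0.06 apart (exact permutation test, two-sided, p = 0.75, n = 3 and 5). This difference was -0.14 with a pseudocount of 0.1. For Dnmt3l the ratio was 3.24 in the wild type and 3.54 in the KO (exact permutation p = 0.40, where 2 against 3 libraries cannot go below 0.20).

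IAP-d is a further ERVK name, for which the files give no separate LTR. In the Pld6 line it stood at 7.50, 10.18 and 11.01 RPM in the wild type and at 29.96, 27.79, 28.75, 33.72 and 29.14 RPM in the KO. The Dnmt3l line had IAP-d at 8.36 and 14.60 RPM in the wild type and at 36.21, 31.90 and 37.76 RPM in the KO. The KO ranges of both lines overlapped, and both lay above all of the wild-type libraries. The means rose 3.12 times in the Pld6 KO (log2 fold change 1.56, SE 0.23, limma adjusted p = 1.0e-05) and 3.07 times in the Dnmt3l KO (1.58, SE 0.29, limma adjusted p = 0.00016). The Dnmt3l wild-type libraries were far apart for this name, and the Dnmt3l log2 fold change was 1.21 without wild-type library 1 and 1.95 without library 2.

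IAPLTR3-int is the internal region that its name places beside the LTR IAPLTR3. It was nearly silent in controls, at 0.09, 0.58 and 0.31 RPM in the Pld6 wild type and 0.69 and 0.67 RPM in the Dnmt3l wild type. In the Pld6 KO it reached 3.68, 5.69, 4.63, 6.15 and 1.82 RPM. In the Dnmt3l KO it reached 12.59, 17.36 and 15.48 RPM. The lowest KO library of either line was above the highest control library, and the Dnmt3l KO values were all above the Pld6 KO values. On the log2(RPM + 1) scale, which understates the change of a name this low, it rose by 1.97 (SE 0.27, limma adjusted p = 3.8e-05) in the Pld6 KO and by 3.25 (SE 0.34, limma adjusted p = 2.5e-06) in the Dnmt3l KO, both from the fit without a filter on low values. The mean RPM was 13.5 times the wild-type mean in the Pld6 KO and 22.3 times in the Dnmt3l KO, ratios that rest on wild-type means of 0.327 and 0.680 RPM. The Pld6 ratio was 22.0 without wild-type library 2 and 9.87 without wild-type library 1, so these ratios do not separate the mutants. With a pseudocount of 0.1 the log2 fold changes were 3.47 and 4.28.

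IAPLTR3, the LTR of that pair, showed no increase that passed the test. In the Pld6 line it was at 0.18, 0.19 and 0 RPM in the wild type, and in the KO it was listed at 0 in 3 libraries and at 0.19 and 0.23 RPM in the others. Among Dnmt3l libraries it was at 0.44 and 0.28 RPM in the wild type and at 0.07, 0.24 and 0.14 RPM in the KO, so that the 3 KO values lay below the wild-type pair. In the fit without a filter its log2 difference was -0.05 (SE 0.12, limma adjusted p = 0.97) for Pld6 and -0.24 (SE 0.15, limma adjusted p = 0.38) for Dnmt3l. The log2 ratio of IAPLTR3-int to IAPLTR3 went from 0.23 ± 0.30 in the Pld6 wild type to 2.25 in the KO, a shift of 2.02, and with Dnmt3l from 0.31 to 3.80, a shift of 3.50. With a pseudocount of 0.1 these shifts were 3.82 and 5.19. Since the LTR stayed below 1 RPM, they follow from the increase of IAPLTR3-int and are given as descriptions, without a test result. Whether reads given to IAPLTR3-int came from other IAP transcripts with a similar internal sequence was not tested, since reads of 50 bases were mapped to consensus sequences and the handling of reads that match several of them is not given in the sources used here.

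IAPLTR4_I and its LTR IAPLTR4 were the faintest pair. IAPLTR4_I was at 0, 0.05 and 0.10 RPM in the Pld6 wild type and at 0.42, 0.04, 0.46, 0.45 and 0.11 RPM in the Pld6 KO, where 3 libraries were above the controls and the other 2 within or near their range. Its Dnmt3l values were 0.56 and 0.07 RPM in the wild type and 0.83, 0.64 and 0.60 RPM in the KO. The Dnmt3l groups did not overlap, by a margin of 0.60 against 0.56 RPM at the nearest. Fitted without a filter, its log2 difference was 0.29 (SE 0.13, limma adjusted p = 0.20) for Pld6 and 0.38 (SE 0.16, limma adjusted p = 0.13) for Dnmt3l, and neither passed the threshold of 0.05 after adjustment. Before adjustment both were under it. The fit with the filter, which leaves IAPLTR4_I out, had 44 (Pld6) and 52 (Dnmt3l) of its 114 subfamilies under it. That is a different set of names, so these counts are not a matched background. IAPLTR4 was listed at 0 in 10 of the 19 libraries, among them all 3 Pld6 wild-type libraries, and its highest value was 0.35 RPM, in a Dnmt3l KO library. Without a filter its log2 difference was 0.07 (SE 0.09, limma adjusted p = 0.77) for Pld6 and 0.21 (SE 0.11, limma adjusted p = 0.26) for Dnmt3l. These p-values do not show that a change was absent.

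**Figure D2:**
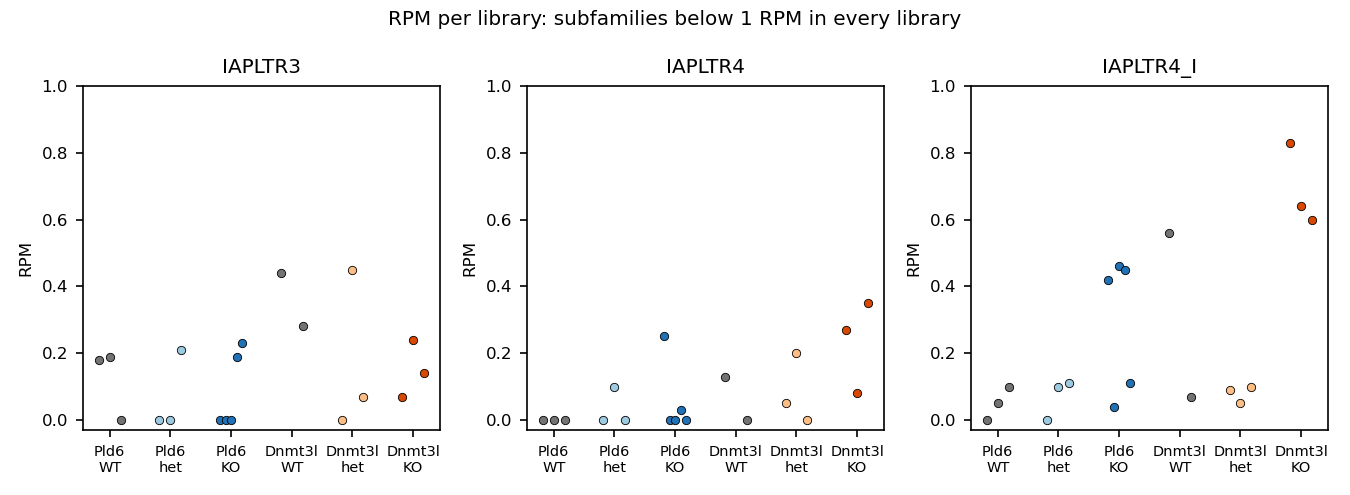
RPM (linear axis, 0 to 1) of the 3 subfamilies that stayed below 1 RPM, with 1 point per library in the 6 groups. The Dnmt3l KO points of IAPLTR4_I, from 0.60 to 0.83 RPM, are the highest in their panel, and IAPLTR3 shows no KO point above its highest control library, at 0.45 RPM.

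Over all 7 names, 4 had Pld6 KO values that all exceeded the Pld6 wild type, against 17.0% of the 259 subfamilies. In the Dnmt3l line 5 of 7 did, IAPLTR4_I being the addition, against 32.8%. The same names were also above every heterozygous library of their line.

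Both mutants shifted many subfamilies upward, and over the 114 tested the log2 fold change had a median of 0.26 in the Pld6 KO and 0.50 in the Dnmt3l KO. Each library was rescaled by the median ratio over 33 subfamilies, IAP1-MM_I and IAPEz-int among them, which brought these medians to -0.14 and -0.02. This lowered the changes of the tested names and kept each past the threshold, with IAPLTR3-int still in the fit through KO libraries alone. IAP1-MM_I was then at 0.71 and 1.00 (Pld6 and Dnmt3l), IAP1-MM_LTR at 0.73 and 0.77, IAP-d at 1.07 and 0.95, and IAPLTR3-int at 1.73 and 2.75. The highest limma adjusted p among them was 0.045, for IAP1-MM_LTR in the Dnmt3l KO. Of all tested subfamilies, 35 were higher and 0 lower in the Pld6 KO as deposited, and 29 higher and 16 lower after rescaling. For the Dnmt3l KO these counts were 44 and 2 as deposited, and 27 and 9 after rescaling.

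No minor name tested in heterozygous spermatogonia differed from the wild type by more than the spread. IAP1-MM_I was at 51.81, 56.90 and 42.13 RPM in Pld6+/- and at 57.65, 59.19 and 55.60 RPM in Dnmt3l+/-. IAPLTR3-int was at 0, 0.79 and 0.50 RPM in Pld6+/-, the 0 being in library 1, which lists many subfamilies at 0, and at 0.56, 0.67 and 0.35 RPM in Dnmt3l+/-. The lowest IAP-d value of all libraries, 4.56 RPM, was in the same Pld6 heterozygous library. None of the 4 tested names passed limma's threshold in either line, with 0 of them at an unadjusted p under 0.05. The background was 0% in both comparisons, with 5 of 114 subfamilies for Pld6 and 0 for Dnmt3l at an unadjusted p under 0.05. The 95% confidence intervals of the log2 difference allowed changes between -0.76 and 0.71 in Pld6+/- and between -0.84 and 0.91 in Dnmt3l+/-.

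The mutants were then compared through the difference of their log2 fold changes, Dnmt3l minus Pld6. IAPLTR3-int had a difference of 1.29 (95% confidence interval 0.39 to 2.18, limma adjusted p = 0.0551), higher in Dnmt3l, which missed the threshold (adjusted p = 0.12 in limma without a filter). It passed in 5 of the 11 alternatives planned, over all of which the adjusted p ran from 0.0036 to 0.77 and the difference from 0.81 to 1.51. The 5 passes came from fits with the filter, which IAPLTR3-int passed through KO libraries alone, so they are descriptions. For IAP1-MM_I the difference was 0.45 (95% confidence interval -0.02 to 0.92, limma adjusted p = 0.20). It was 0.21 for IAP1-MM_LTR (-0.47 to 0.89, limma adjusted p = 0.73) and 0.02 for IAP-d (-0.75 to 0.80, limma adjusted p = 0.96). So 0 of the 4 passed the test of a difference between the mutants, against a background of 12.3%. At an unadjusted p under 0.05 there was 1 of the 4, against 32 of all 114 tested. The intervals do not show that the other 3 were raised equally, and the sign for IAP-d and IAP1-MM_LTR changed with the controls used.

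**Figure D3:**
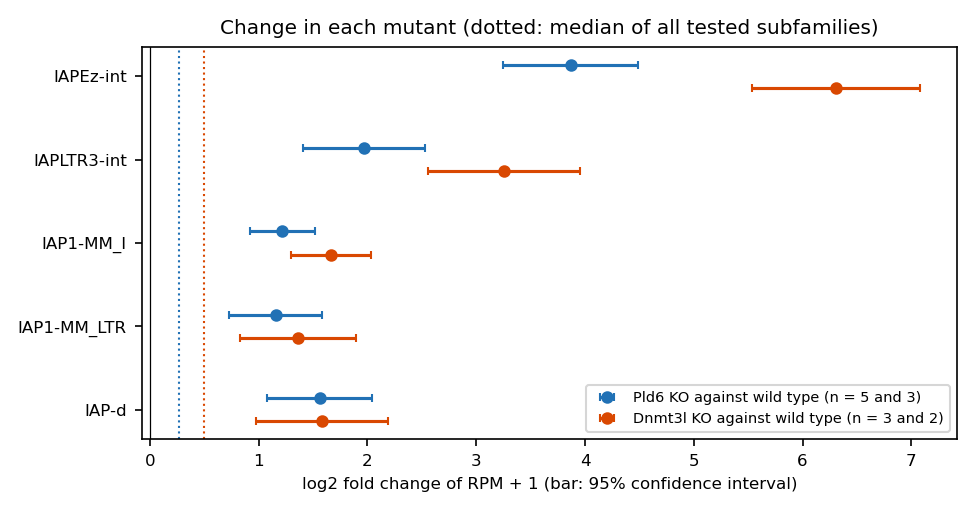
Log2 fold change of RPM + 1 in each KO against its wild type, with 95% confidence intervals from limma, for the 4 tested subfamilies and for IAPEz-int. Dotted lines are the medians of all 114 tested subfamilies, 0.26 and 0.50. The Pld6 and Dnmt3l intervals overlap for IAP1-MM_I, IAP1-MM_LTR and IAP-d. For IAPLTR3-int they run from 1.41 to 2.53 and from 2.56 to 3.95, in a fit it entered through KO libraries alone. The test of its difference between the mutants missed the threshold (limma adjusted p = 0.0551).

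IAPEz-int, the internal region of the most abundant young IAP, gives the scale of these changes. It was at a median of 72.8 RPM in the Pld6 wild type and 1380 RPM in the Pld6 KO, where library 5 was lowest at 448 RPM. In the Dnmt3l line it stood at 76.5 and 86.5 RPM in the wild type, and the KO ranged from 5748 to 7410 RPM. Its log2 fold change was 3.87 (SE 0.29, limma adjusted p = 2.1e-09) for Pld6 and 6.31 (SE 0.37, limma adjusted p = 9.3e-11) for Dnmt3l.

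IAP1-MM_I had a large RPM relative to IAPEz-int in the controls and a small one in the KO groups. It equalled 51.4% to 70.6% of the IAPEz-int RPM in the Pld6 wild type, 7.01% to 22.5% in the Pld6 KO, and 2.34% to 2.60% in the Dnmt3l KO, against 57.4% and 66.5% in the Dnmt3l wild type. For IAPLTR3-int the RPM was 0.261% to 0.483% of IAPEz-int in the Pld6 KO and 0.209% to 0.268% in the Dnmt3l KO, against 0.140% to 0.640% and 0.774% to 0.902% in the respective wild types. The increase in mean RPM of IAP1-MM_I equalled 5.60% of the increase of IAPEz-int in the Pld6 KO and 1.72% in the Dnmt3l KO. These shares were 1.80% and 0.368% for IAP-d, 0.457% and 0.133% for IAP1-MM_LTR, and 0.360% and 0.224% for IAPLTR3-int. Pld6 KO library 5 held the lowest IAPEz-int, IAPLTR3-int and IAP1-MM_I values of the 5. Its IAPLTR3-int (1.82 RPM) was well below the next lowest, 3.68 RPM, while its IAP1-MM_I (100.58 RPM) was next to 102.60 RPM. Without this library the Pld6 log2 fold change of IAPLTR3-int was 2.18.

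**Figure D4:**
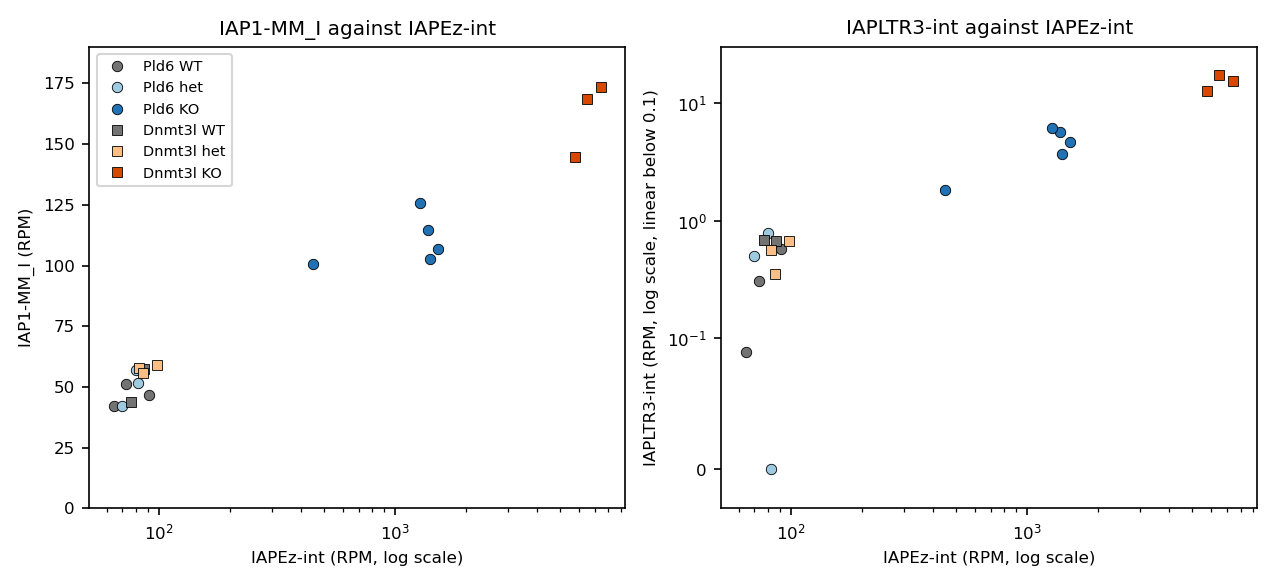
RPM of IAP1-MM_I (left, linear axis) and IAPLTR3-int (right, log axis that is linear below 0.1) against IAPEz-int (log axis), with 1 point per library, circles for the Pld6 line and squares for the Dnmt3l line. IAP1-MM_I runs from 42.13 to 173.48 RPM while IAPEz-int runs from 64.3 to 7410 RPM, and IAPLTR3-int runs from 0 to 17.36 RPM.

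The 7 names together took 30.6% ± 3.20 (SD, n = 3) of all IAP RPM in the Pld6 wild type and 10.1% ± 4.04 (n = 5) in the Pld6 KO. In the Dnmt3l line the share was 31.8% ± 3.98 (n = 2) in the wild type and 2.88% ± 0.149 (n = 3) in the KO. Their summed RPM was nonetheless higher in both mutants, going from 59.9 ± 7.21 to 153 ± 16.0 RPM in Pld6 and from 68.0 ± 13.9 to 227 ± 16.7 RPM in Dnmt3l, and no KO library overlapped a control in either measure. Shares in heterozygous cells were 31.1% ± 0.596 in Pld6+/- and 32.3% ± 1.08 in Dnmt3l+/- (SD, n = 3 each). Of the 25 IAP names, IAP1-MM_I was the second by RPM in the controls of both lines and in the Pld6 KO, and rank 4 in the Dnmt3l KO. IAPLTR3-int moved from rank 19 in all 4 control groups to rank 17 in the Pld6 KO and rank 12 in the Dnmt3l KO.

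**Figure D5:**
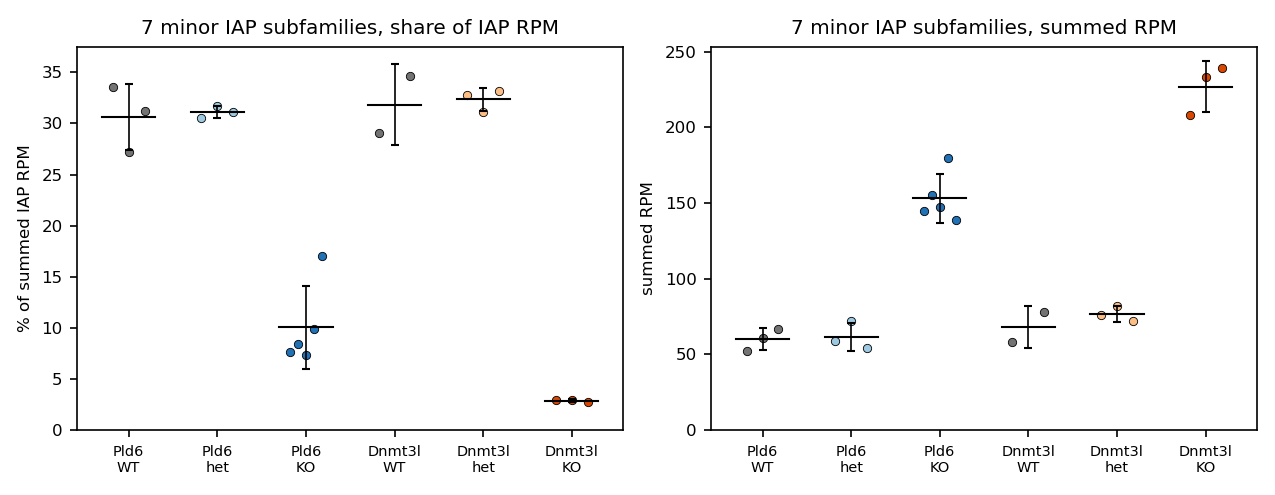
Share of the summed IAP RPM taken by the 7 minor subfamilies (left, percent) and their summed RPM (right), by group. Points are libraries, lines are means and bars are SD. The share is near 31% in controls and at 10.1% and 2.88% in the KO groups, while the summed RPM there averages 153 and 227 RPM.

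Among the 18 other IAP names, 16 were tested, of which 11 were higher in the Pld6 KO (median log2 fold change 1.73) and 10 in the Dnmt3l KO (median 1.95). The highest minor name, IAPLTR3-int, was in place 7 of the 20 tested IAP names in the Pld6 KO, between the LTR IAPLTR2a (2.73) and the internal region IAPEY5_I (1.84). In the Dnmt3l KO it was in place 8, between the LTR IAPLTR1a_Mm (3.37) and IAPEY5_I (2.32). Both places come from the fit with the filter, which IAPLTR3-int entered through KO libraries alone. The pseudocount in that fit understates the change of a name this low, so the places and neighbours are descriptions that depend on it. Places by the ratio of mean RPM were not tested.

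Likeness of pattern was measured as the root mean square difference of log2(RPM + 1), centred on each name's mean, over the 19 libraries and against 110 other tested names. The LTRs RLTR10C and RLTR10A were nearest to IAP1-MM_I (0.29 and 0.31) and, in the other order, to IAP1-MM_LTR (0.32 for RLTR10A and 0.33 for RLTR10C). RLTR10C is the LTR of the ERVK element MMERVK10C. IAP1-MM_I and IAP1-MM_LTR were nearer to each other, at 0.26. IAP-d was nearest to RLTR10A (0.33) and IAPEY3-int (0.38). IAPLTR3-int was nearest to IAPLTR1a_Mm (0.25) and IAPEY5_I (0.42), and far from the other tested minor names, the nearest being IAP1-MM_I at 0.72. These values are descriptions over the 19 libraries, with no test. The pseudocount compresses the change of IAPLTR3-int, which was below 1 RPM in all controls. Likeness with another pseudocount was not tested.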

How the data were processed

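Single-end mRNA-seq reads of 50 bases were trimmed with Trim Galore according to the submitters' processing notes. The authors aligned them to consensus sequences of retrotransposons by hisat2 and deposited 1 table per library with the RPM of 259 subfamilies. The hisat2 settings, the handling of reads with several matches and the total behind RPM are not given in the sources used here. Low RPM values did not resolve into whole reads, so no count test was run and depth is unknown. The smallest non-zero value was 0.01 to 0.07 RPM per library.

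log2(RPM + 1) was fitted with limma 3.58.1 (R 4.3.3, eBayes with trend) over all 19 libraries and 6 groups, for 114 subfamilies with at least 1 RPM in at least 2 libraries. Benjamini-Hochberg adjustment was applied to each comparison separately, with a threshold of 0.05. The internal-to-LTR ratios of IAP1-MM were tested by a two-sided exact permutation test as in scipy 1.17.1. The scripts were tested on simulated data. Replicates are biological per the labels.

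Every minor IAP name is reported, with IAPEz-int as reference, the other IAP names next to the highest minor name, and the 2 most similar other names for each tested minor name. The members and lists were chosen with earlier results of these data known. Alternatives comprised other pseudocounts, filters, rescaling, eBayes settings, control groups, a replicate block and leaving out each library. Consensus sequences were not used here.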

Additional observations from a re-analysis of the deposited data

Results flagged for a closer look

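Values of the 5 Pld6 KO libraries were checked for a library apart from the rest by Dixon's ratio of the gap to the range, with a critical value of 0.71, in 11 sets of values. Chance marks about 1 in 20 such sets, and 3 of the 11 were past it. IAP1-MM_LTR was highest in library 4, with a ratio of 0.833: 13.25 RPM against 6.59 to 7.70 RPM in the others. IAPLTR4 was highest in library 1, with a ratio of 0.88, although the value is only 0.25 RPM and 3 libraries are listed at 0. IAPEz-int was lowest in library 5, with a ratio of 0.767: 448 RPM against a median of 1380 RPM. The part of any technical difference between these libraries was not tested.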

How the results depend on the processing

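The 4 tested names stayed higher in each KO group under all 11 other settings of the fit and the 2 chosen later, and without each KO or wild-type library of that line or Pld6 heterozygous library 1. The count in each heterozygous group stayed 0 under 9 other settings and 6 omissions. The count differing between the mutants, 0 as reported, became 1 (IAPLTR3-int) with the compared groups fitted alone, with eBayes without trend, with the replicate block (difference 1.19, limma adjusted p = 0.021), and with heterozygous or pooled controls, with or without Pld6 heterozygous library 1 (that omission, and all alternatives for the internal-to-LTR ratios and the ratios of mean RPM, were chosen after seeing the data). Leaving out libraries gave 0 to 1, the 1 arising without Pld6 KO library 2 (limma adjusted p = 0.046), Pld6 KO library 4 (0.027) or Pld6 heterozygous library 1 (0.024). Every fit that gave 1 used the filter, which IAPLTR3-int passed through KO libraries alone, so these passes are descriptions. The fit without a filter gave 0. The replicate block changed no other call. The labels do not say that the numbers pair the samples, and the main fit did not pair them. In Dnmt3l the correlation r of deviations from the group means was above 0.1 in 5 of 7 same-numbered pairs (lowest 0.043). It was above 0.1 in 1 of 14 Dnmt3l pairs with different numbers. In Pld6 it was above 0.1 in 4 of 9 same-numbered pairs (lowest -0.30) and in 10 of 30 others. Whether the Dnmt3l samples were paired stays unknown.

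The difference between the mutants changed sign for IAP-d when rescaled (-0.13), with heterozygous controls (-0.50, or -0.16 without Pld6 heterozygous library 1), with pooled controls (-0.27, or -0.11), and between -0.35 and 0.39 with libraries left out. For IAP1-MM_LTR it was -0.018 with heterozygous controls, or -0.027 without that library. The KO effect on the IAP1-MM internal-to-LTR ratio in Pld6 was -0.039 and -0.14 with pseudocounts of 0.5 and 0.1, -0.30 and -0.12 with heterozygous and pooled controls, and -0.0054 to 0.18 with libraries left out. That on the IAPLTR4_I ratio in Dnmt3l was -0.0070 to 0.36 with libraries left out. The causes were not tested. Over all alternatives and omissions, 29 to 52 of all subfamilies were higher in the Pld6 KO (35 as reported), 27 to 67 in the Dnmt3l KO (44), and 3 to 18 in Dnmt3l over Pld6 (9). Where 1 Dnmt3l wild-type library remained, it was assumed to vary like the other groups. Values below 1 RPM are limited by an unknown depth.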
